A study of Homo sapiens with 8 samples.

Results

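The genes of the proteasome were examined in RNA-seq of CTCFAID2 SEM cells, a line of human B-lineage acute lymphoblastic leukemia (B-ALL) with a rearranged KMT2A gene. The members were taken by name: every protein-coding gene whose symbol begins with PSM followed by a letter from A to G and a digit, together with PSMF1, POMP, ADRM1, NFE2L1 and DDI2. This gave 53 of the 60754 genes in the table, of which 51 reached 1 TPM (a share of the transcripts in a library, corrected for gene length) in at least 1 library and were tested. PSMA8, a testis-specific alpha subunit, was listed at 0 in all 8 libraries, and PSMB11, the thymus-specific beta subunit, did not pass 1 TPM. PSMC3IP met the name rule but encodes a partner of homologous recombination enzymes and not a subunit.

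All cells carried an in-frame miniAID-mClover3 tag on both CTCF alleles and a mutant of the rice F-box protein OsTIR1 expressed with Zeocin resistance from an MND-driven lentiviral cassette. Parental cells of the clones C17.2 and C3.2 were untreated. Resistant cells of each clone were grown for 36 days in 1 μM 5-Ph-IAA, the auxin analog that recruits the tagged protein to OsTIR1, with 100 μg/ml Zeocin, and both drugs were then washed out. Each of the 4 groups had 2 libraries, and nothing in the labels says that they came from separate cultures, so p-values measure the spread between these libraries. Each line is a single clone. C17.2 resistant cells make a truncated CTCF without the degron, beside the tagged full-length protein, which the paper saw return after washout and still degrade with auxin. C3.2 resistant cells keep full-length CTCF with a changed miniAID tag. The titles of the libraries open with numbers from a separate series for each clone, with no word on what they mark, so that a difference in level between clones and one between these series cannot be told apart. The change within a clone lies within a series.

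The 26S proteasome degrades ubiquitylated proteins, including miniAID-tagged proteins once OsTIR1 has marked them. Its 20S core stacks rings of alpha subunits, which gate entry, around rings of beta subunits, of which PSMB5, PSMB6 and PSMB7 cut peptide bonds. The 19S particle caps the core with a ring of PSMC ATPases that unfold substrates and PSMD subunits that bind and remove ubiquitin. In lymphoid cells PSMB8, PSMB9 and PSMB10 can replace the catalytic subunits to form the immunoproteasome, which makes peptides for MHC class I. The transcription factor NFE2L1 (NRF1), activated by the protease DDI2, is known to induce subunit genes together when proteasome activity is limiting.

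TPM does not keep the depth of a library, so depth is unknown and no counting interval is given. Levels below are scaled TPM, the deposited TPM divided by a library factor between 0.893 and 1.16, and are listed as replicate 1 and replicate 2. Changes are differences of log2(scaled TPM + 1), which understate the change of low genes. Without these factors the median of all genes tested moved by 0.13 in C17.2 and 0.05 in C3.2. Protein-coding genes took 39.3% and 41.7% of deposited TPM in C17.2 parental, 42.1% and 43.3% in C17.2 resistant, 37.5% and 38.7% in C3.2 parental, and 36.0% and 38.3% in C3.2 resistant libraries, and the part of this difference in the results below was not tested. All 8 B-lineage markers were tested and their summed level was 673 to 947 scaled TPM. It was 845 and 845 in C17.2 parental and 673 and 698 in resistant libraries, and 918 and 947 in C3.2 parental and 758 and 759 in resistant libraries, so that it was lower in resistant cells of both clones. Of the 8, 4 fell and 0 rose in C17.2 by limma (0 higher at an unadjusted p under 0.05), and 4 fell and 1, PAX5, rose in C3.2. IGLL1, a surrogate light chain of early B cells, fell most (log2 change -2.16 in C17.2 and -2.35 in C3.2). Its part in the results below was not tested. The 6 T cell markers summed to at most 0.238 and the 4 erythroid markers to at most 0.441, and 6 myeloid markers summed to between 2.53 and 4.35. Of 4 stroma markers, which summed to 285 to 342, VIM, found in many cell types, made up 273 to 327, COL1A2 was at 0 throughout, and COL1A1 rose in C17.2 from 2.83 and 2.66 to 6.64 and 5.62. CTCF itself was at 33.7 and 34.1 in C17.2 parental and 45.5 and 47.3 in resistant libraries, and at 36.0 and 35.0 in C3.2 parental and 45.3 and 44.8 in resistant libraries. This transcript level does not check the label, since the degron acts on the protein. In bulk libraries a change of RNA per cell and a change of the cells present cannot be told apart.

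In C17.2 the subunit genes were higher in resistant than in parental cells, whereas NFE2L1 was lower. Of the 51 tested members 23 rose and 2 fell, which is 45.1% and 3.92%, beside 13.4% and 13.9% of all 15614 genes tested. Among the 7148 protein-coding genes in the same range of levels, 19.5% rose and 15.1% fell. The 32 tested 26S subunits, with the immunoproteasome left out, held 19 of the rises and 0 of the falls by limma, and 22 rises and 0 falls at an unadjusted p under 0.05. All 32 had a change above 0, with a median of 0.27 and a range of 0.06 to 0.57, and the same count above 0 was found under each of the other scalings. Both resistant libraries were above both parental libraries for 30 of the 32, which is 93.8%, beside 33.3% of all genes and 41.3% of protein-coding genes in the same range. The count of 25 called members became 15 without parental replicate 1, 16 without parental replicate 2 and 16 without resistant replicate 1. In every one of the 16 alternatives run 13 of the 25 kept their call, namely PSMA3, PSMA7, PSMB1, PSMB2, PSMB6, PSMC4, PSMD1, PSMD7, PSMD13, PSME2, PSME3, POMP and NFE2L1.

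**Figure D1:**
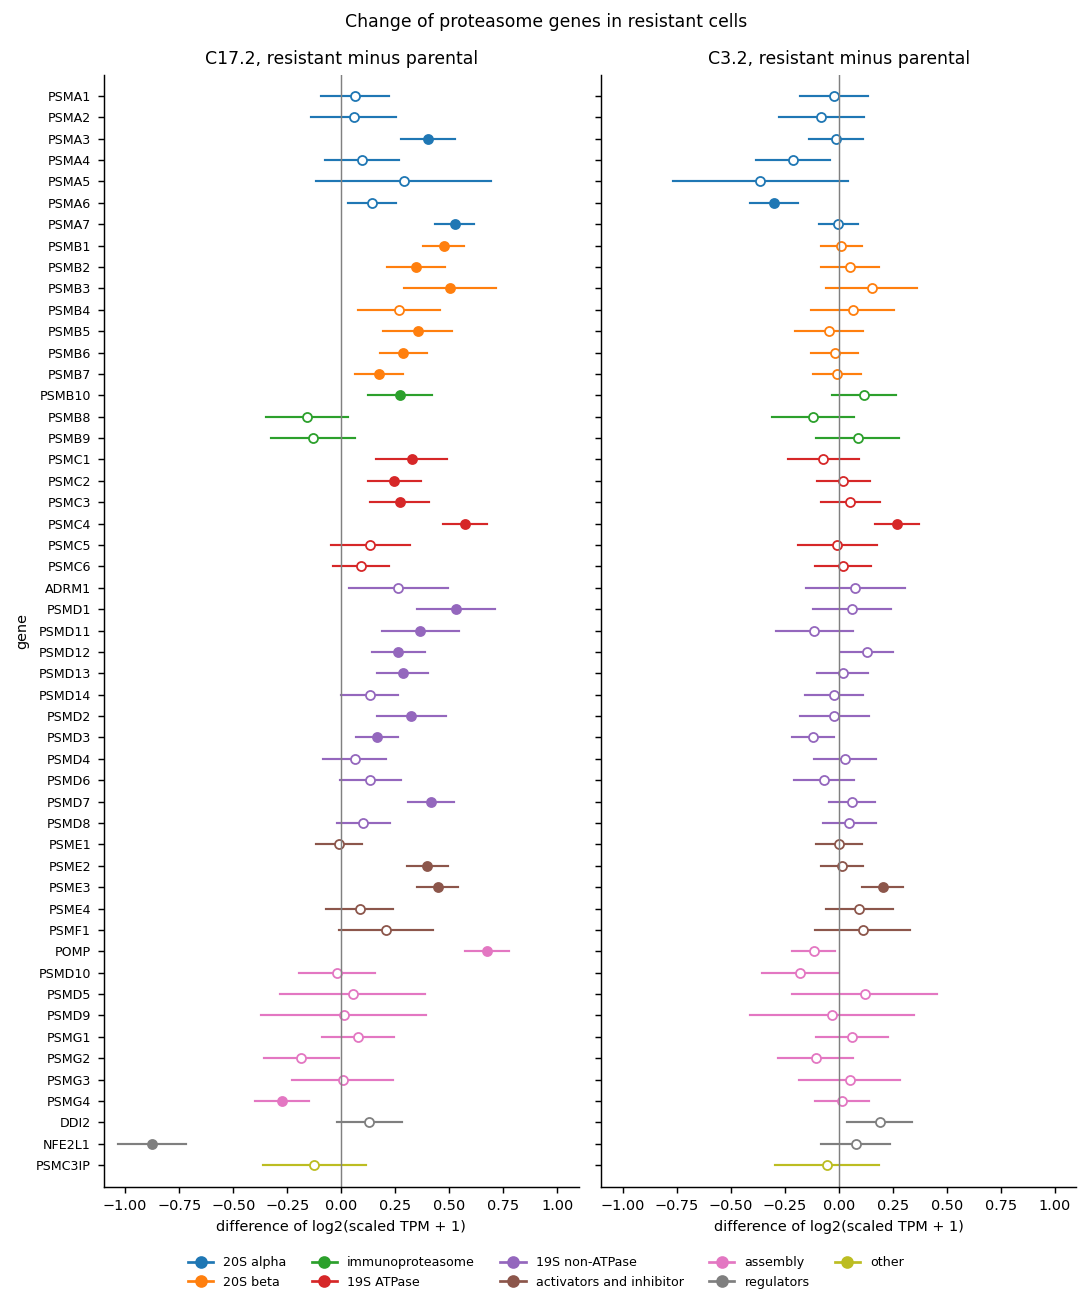
The difference of log2(scaled TPM + 1) between resistant and parental cells (x axis) for each of the 51 tested members (y axis), in C17.2 (left) and C3.2 (right). Points are limma estimates from 2 libraries a group, lines are 95% confidence intervals, filled points have an adjusted p under 0.05, and colors mark the class. In C17.2 the filled points lie at positive values apart from NFE2L1 and PSMG4, and in C3.2 only PSMC4, PSME3 and PSMA6 are filled.

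NFE2L1 had the largest absolute change of the tested members in C17.2. It was at 42.0 and 43.2 scaled TPM in parental and 23.7 and 21.8 in resistant libraries of C17.2, and at 18.1 and 19.8 in parental and 19.5 and 20.6 in resistant libraries of C3.2. The C17.2 parental libraries stood apart, above every other library. The log2 change in C17.2 was -0.88 ± 0.07 SE (adjusted p = 0.000361), and the change in C3.2 was 0.08 (adjusted p = 0.487). DDI2, which cleaves NFE2L1, was at 12.7 and 11.8 in parental and 13.3 and 13.6 in resistant cells of C17.2, and its change of 0.13 did not pass the test (adjusted p = 0.175). In C3.2 the change of DDI2 was 0.19 and did not pass the test either, although its unadjusted p by limma was under 0.05.

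POMP, the chaperone that guides the final assembly of the 20S core and is lost on its completion, had the largest rise. It was at 22.5 and 22.2 in parental and 35.9 and 36.6 in resistant libraries of C17.2, and at 39.0 and 37.3 in parental and 35.0 and 35.3 in resistant libraries of C3.2. The C17.2 parental libraries were the low ones, and the C17.2 resistant libraries lay within the range of C3.2. In deposited TPM the C17.2 parental libraries were again lowest, but the C17.2 resistant libraries, at 40.3 and 42.3, were above the C3.2 range of 32.7 to 34.9. The log2 change in C17.2 was 0.67 ± 0.04 SE (adjusted p = 0.00018). The member with the largest fall and the member with the largest rise both departed from a parental level of C17.2 that neither C3.2 group shared.

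**Figure D2:**
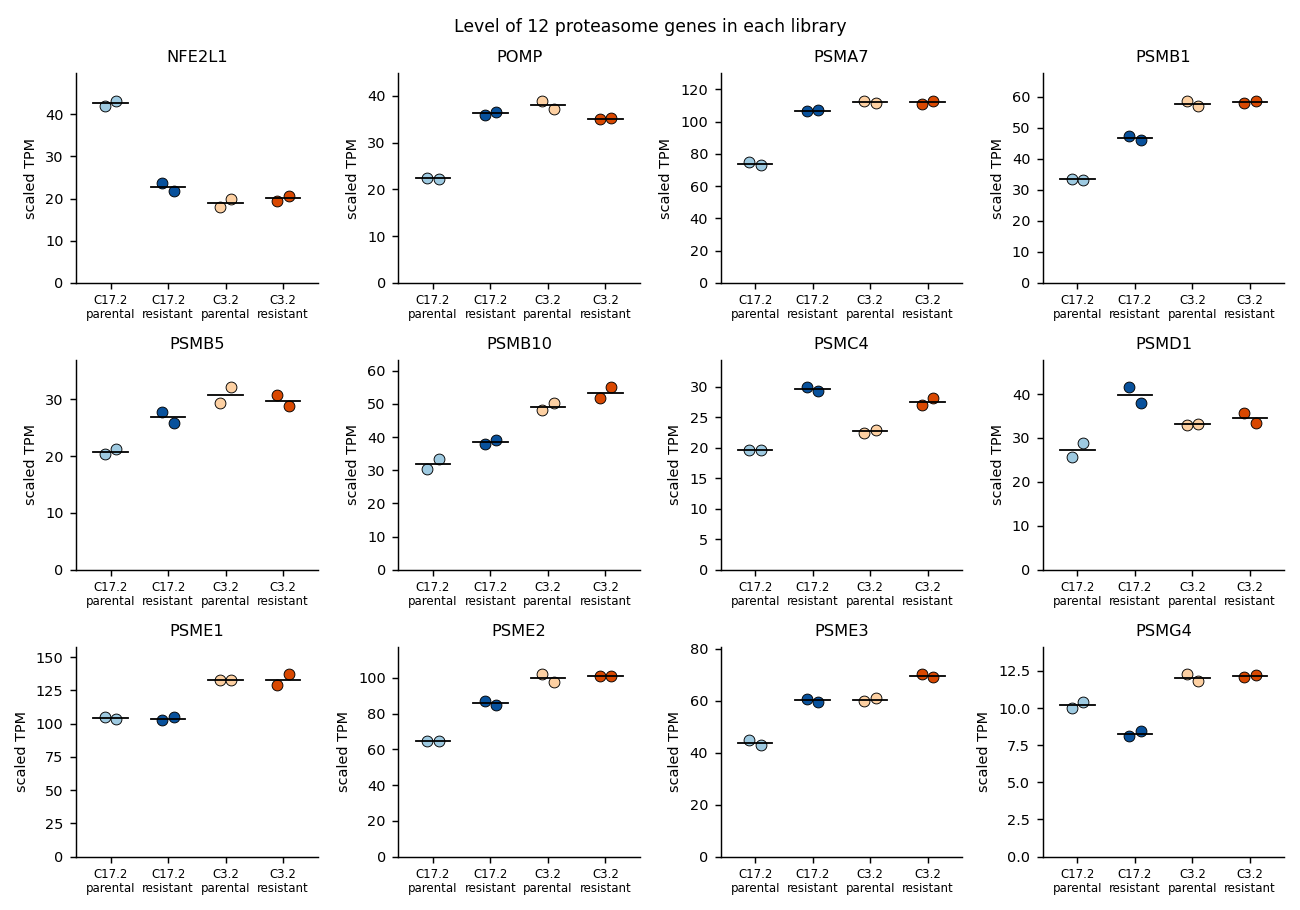
Scaled TPM (y axis) of 12 members in each of the 8 libraries, by group (x axis, 2 libraries each), with points for libraries and lines for group means. NFE2L1 is high and POMP, PSMA7, PSMB1 and PSME2 are low in the C17.2 parental libraries, whereas PSME1 differs between the clones and PSMC4 and PSME3 are higher in resistant cells of both.

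The bases upstream of a few members are shown because these genes moved in opposite directions or belong to the interferon-inducible group. RefSeq promoter entries (GRCh38.p14) were found for 47 of the 53 members, 59 entries in all, and the 250 bases before each start were searched on both strands for 5 motifs. The lines give the strand of the gene from 5′ to 3′, with every match in capitals. They stand for NFE2L1 (chr17:48048109-48048358, plus strand), POMP (chr13:28658880-28659129, plus strand), PSME2 (chr14:24146611-24146860, minus strand), PSMB10 (chr16:67936851-67937100, minus strand) and PSMB9 (chr6:32853942-32854191, plus strand).
NFE2L1: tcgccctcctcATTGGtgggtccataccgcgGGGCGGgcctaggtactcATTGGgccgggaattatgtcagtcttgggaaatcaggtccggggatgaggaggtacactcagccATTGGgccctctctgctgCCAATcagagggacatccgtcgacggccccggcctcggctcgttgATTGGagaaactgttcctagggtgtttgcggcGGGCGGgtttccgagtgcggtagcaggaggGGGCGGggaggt
POMP: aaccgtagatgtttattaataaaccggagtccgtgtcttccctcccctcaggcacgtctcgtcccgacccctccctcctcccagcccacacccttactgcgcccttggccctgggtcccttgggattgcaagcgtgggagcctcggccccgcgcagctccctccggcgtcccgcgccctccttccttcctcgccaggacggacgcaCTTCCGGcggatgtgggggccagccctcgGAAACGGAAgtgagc
PSME2: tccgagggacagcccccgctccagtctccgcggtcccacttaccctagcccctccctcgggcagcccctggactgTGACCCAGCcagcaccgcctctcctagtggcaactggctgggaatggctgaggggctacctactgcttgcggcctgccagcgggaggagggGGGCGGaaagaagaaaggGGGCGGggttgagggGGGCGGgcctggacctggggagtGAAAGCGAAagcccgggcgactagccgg
PSMB10: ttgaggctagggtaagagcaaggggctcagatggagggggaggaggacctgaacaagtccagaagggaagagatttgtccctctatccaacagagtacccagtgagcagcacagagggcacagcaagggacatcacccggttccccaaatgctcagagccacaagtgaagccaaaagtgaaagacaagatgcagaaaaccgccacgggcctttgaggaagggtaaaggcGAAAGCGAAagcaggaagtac
PSMB9: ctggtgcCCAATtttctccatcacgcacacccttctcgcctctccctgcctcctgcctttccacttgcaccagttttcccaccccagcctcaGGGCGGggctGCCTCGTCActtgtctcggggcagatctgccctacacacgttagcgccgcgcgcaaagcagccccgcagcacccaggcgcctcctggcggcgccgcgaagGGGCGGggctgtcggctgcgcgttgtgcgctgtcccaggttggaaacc
The CCAAT box (CCAAT) was found in 24 of the 59 member entries, 40.7%, beside 32% of all 35116 promoters. The NFE2L1 entry shown held 5 of them, a number reached by 0.319% of promoters and singled out after it was seen. Another NFE2L1 entry (chr17:48048531-48048780) held no CCAAT box and 1 GC box. The core of the antioxidant response element bound by NFE2L1 and its relatives (TGACNNNGC) was in 15 entries, 25.4%, beside 10.9% of all promoters, and PSME2 and PSMB9 hold it. The ETS core (CTTCCGG), seen in POMP, was in 22.0% of member entries and 8.52% of all promoters. The GC box (GGGCGG) was in 64.4% and 42.6%. The paired GAAA motif of interferon response elements (GAAANNGAA) was in 10.2% and 6.88%. The 6 genes with it were POMP, PSMA4, PSMB4, PSMB10, PSME2 and PSMG4, with 1 each. The PSMB8 entries held no match to any of the 5 motifs. Members with more than 1 entry were counted once for each entry, and the relation of a motif to the changes was not tested.

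Within the 20S core, 8 of the 14 tested alpha and beta subunits rose in C17.2. This compares with 13.4% of all genes and 19.5% of protein-coding genes in the members' range. The median change of the 14 was 0.29. The alpha ring contributed PSMA3 and PSMA7, and the beta ring 6 of its 7 genes. PSMA7 was at 74.8 and 72.8 in parental and 106 and 107 in resistant libraries, and at 112 and 112 in parental and 111 and 113 in resistant libraries of C3.2. Its log2 change in C17.2 was 0.52 ± 0.04 SE (adjusted p = 0.000275), and on this scale only the C17.2 parental libraries were low. PSMA1, of the same ring, was at 80.4 and 80.2 in parental and 81.3 and 86.8 in resistant libraries, with a change of 0.06 that did not pass the test (adjusted p = 0.516). PSMA5 did not pass either, and its 2 C3.2 resistant libraries, at 26.9 and 18.0, were the farthest apart of any member in any group.

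The beta subunits without proteolytic activity rose with the catalytic ones. PSMB1 was at 33.6 and 33.3 in parental and 47.5 and 46.2 in resistant libraries of C17.2, below the range of 56.9 to 58.8 in C3.2. It rose by 0.47 ± 0.04 SE on the log2 scale (adjusted p = 0.000537). PSMB3 rose from 50.8 and 48.9 to 71.0 and 71.0 (log2 change 0.50, adjusted p = 0.0079). PSMB2 rose by 0.35 (adjusted p = 0.00577). PSMB4 was just outside the threshold with a change of 0.27 (adjusted p = 0.0503), and its resistant libraries were both above the parental ones.

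Among the catalytic pairs all 3 constitutive subunits rose in C17.2, and of their immunoproteasome counterparts PSMB10 passed the test. PSMB5, the chymotrypsin-like subunit and the target of bortezomib, was at 20.4 and 21.2 in parental and 27.8 and 25.8 in resistant libraries of C17.2 and rose by 0.35 ± 0.07 SE (adjusted p = 0.0101). Without parental replicate 1 this call was lost (change 0.33, adjusted p = 0.0704), and without resistant replicate 1 as well (change 0.30, adjusted p = 0.0594). PSMB6, the caspase-like subunit, rose by 0.29 (adjusted p = 0.00517) and PSMB7, the trypsin-like subunit, by 0.17 (adjusted p = 0.0337). PSMB8, which replaces PSMB5, was at 30.2 and 31.3 in parental and 28 and 26.9 in resistant libraries, and its change of -0.16 did not pass the test (adjusted p = 0.191). On the deposited scale PSMB8 was flat, at 31.7 and 31 in parental and 31.4 and 31.1 in resistant libraries. PSMB9, which replaces PSMB6, was at 15.1 and 15.5 and at 13.2 and 14.6 (change -0.13, adjusted p = 0.277), and its change was 0.02 on the deposited scale. PSMB10, which replaces PSMB7, was at 30.3 and 33.4 in parental and 37.9 and 39.2 in resistant libraries and rose by 0.27 ± 0.06 SE (adjusted p = 0.0204). Of 16 alternatives the call was kept in 14 for PSMB5, 12 for PSMB10 and 11 for PSMB7. Without 1 of the C17.2 libraries the adjusted p reached 0.103 for PSMB10 (without resistant replicate 2) and 0.126 for PSMB7 (without parental replicate 1).

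Ratios within a library do not depend on the scaling. PSMB8 was 59.7% of PSMB8 and PSMB5 together in both C17.2 parental libraries and 50.2% and 51.0% in the resistant ones, a mean of 50.6% ± 0.583 (SD, n = 2). In C3.2 it was 50.3% and 53.2% in parental and 49.1% and 51.7% in resistant libraries. The PSMB9 share of its pair was 29.1% and 30.8% in C17.2 parental and 22.9% and 25.1% in resistant libraries. In C3.2 its means were 21.4% in parental and 22.7% in resistant cells, and the libraries overlapped. The PSMB10 share moved less in C17.2 and in the opposite direction, from 40.6% and 42.4% to 43.4% and 42.9%. In C3.2 it was 46.1% and 48.3% in parental and 48.5% and 50.2% in resistant libraries. In C17.2 the libraries did not overlap for the PSMB8, PSMB9 or PSMB10 share. By the level of single genes, which is not the measure of a share, both C17.2 resistant libraries were above both parental ones for 33.3% of all genes and below for 32.7%. No such percentage is given for shares of other gene pairs. Over the 6 catalytic genes the immunoproteasome share was 43.4% ± 1.07 (SD, n = 2) in C17.2 parental, 39.7% ± 0.368 in C17.2 resistant, 41.1% ± 0.709 in C3.2 parental and 42.0% ± 0.2 in C3.2 resistant cells. With 2 libraries against 2 an exact permutation test of such a share cannot give a p below 0.333, so these shares are a description. Exons of PSMB8 and PSMB9 overlap each other and PSMB8-AS1, and whether reads were counted by strand is not stated, so reads of these genes may have been split between them. Exons of PSMB10 overlap AC040162.1 on the same strand, so its reads may have been split as well.

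**Figure D3:**
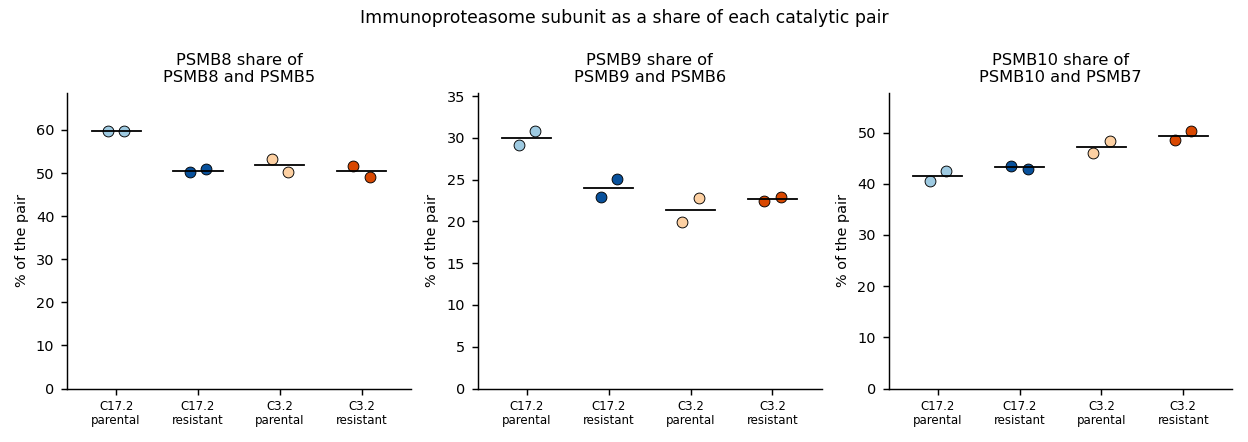
Percentage of each catalytic pair taken by the immunoproteasome subunit (y axis) in each library, by group (x axis), with points for libraries and lines for the means of 2. The PSMB8 and PSMB9 shares are highest in the C17.2 parental libraries, at 59.7% and at 29.1% and 30.8%, and the PSMB10 share is higher in C3.2 than in C17.2.

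Of the 18 tested 19S subunits 11 rose in C17.2, beside 13.4% of all genes and 19.5% of protein-coding genes in the members' range. The median change of the 18 was 0.26. PSMC4, an ATPase of the ring, had the largest change of the 32 subunits. It was at 19.6 and 19.6 in parental and 29.9 and 29.3 in resistant libraries, and rose by 0.57 ± 0.04 SE on the log2 scale (adjusted p = 0.000361). Its ring partners PSMC1, PSMC2 and PSMC3 rose by 0.33, 0.25 and 0.27, whereas PSMC5 and PSMC6 had changes of 0.13 and 0.09 and did not pass the test (adjusted p = 0.245 and 0.266). All 6 ATPase genes had both resistant libraries above both parental libraries, beside 33.3% of all genes and 41.3% of protein-coding genes in the members' range. Exons of PSMC1 overlap NRDE2 on the other strand, and those of PSMC2 overlap PMPCB.

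Of the 12 non-ATPase genes, 7 rose in C17.2, beside 13.4% of all genes and 19.5% of protein-coding genes in the members' range. PSMD1, the scaffold of the 19S base, was at 25.6 and 28.9 in parental and 41.5 and 38.1 in resistant libraries (log2 change 0.53 ± 0.07 SE, adjusted p = 0.00349). PSMD2, the other large scaffold, rose by 0.32 (adjusted p = 0.014). The lid subunits PSMD7, PSMD11, PSMD12, PSMD13 and PSMD3 rose by 0.42, 0.37, 0.26, 0.29 and 0.16. The others did not pass the test. The ubiquitin receptors PSMD4 and ADRM1 had changes of 0.06 and 0.26 (adjusted p = 0.496 and 0.0877), and the deubiquitylase PSMD14 had 0.13 (adjusted p = 0.133). PSMD6 and PSMD8 had changes of 0.13 and 0.10 (adjusted p = 0.139 and 0.198). PSMD12, with a change of 0.26 like that of ADRM1, was called. The ADRM1 libraries of resistant cells were at 30.4 and 25.0, and its change was 0.40 or 0.13 depending on which of them was left out.

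The summed level of the 26S subunits moved with these genes. It was 1288 and 1304 scaled TPM in C17.2 parental, between 1557 and 1559 in C17.2 resistant, between 1649 and 1656 in C3.2 parental, and between 1623 and 1634 in C3.2 resistant libraries. The groups did not overlap, and C17.2 parental was lowest. In deposited TPM the C17.2 parental libraries were still lowest, at 1352 and 1288, but the C17.2 resistant libraries were highest, at 1748 and 1800, beside 1473 to 1593 in C3.2. The order of the subunits by level was nearly the same in both parental groups (Spearman's rho = 0.966 over 32 genes, which share these libraries), and level had little relation to the change in C17.2 (rho = -0.123 over the same genes). Both C17.2 parental libraries were below the other 6 libraries for 28 of the 32 subunits in scaled TPM, 87.5%, beside 14.7% of all genes and 21.9% of protein-coding genes in the same range. In deposited TPM they were for 19, 59.4%, beside 8.83% and 12.4%. Both C17.2 resistant libraries were above the other 6 for 4 subunits in scaled TPM, 12.5%, beside 12.6% of all genes, and for 23 in deposited TPM, 71.9%, beside 37.1% of all genes and 49.8% of protein-coding genes in the same range.

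**Figure D4:**
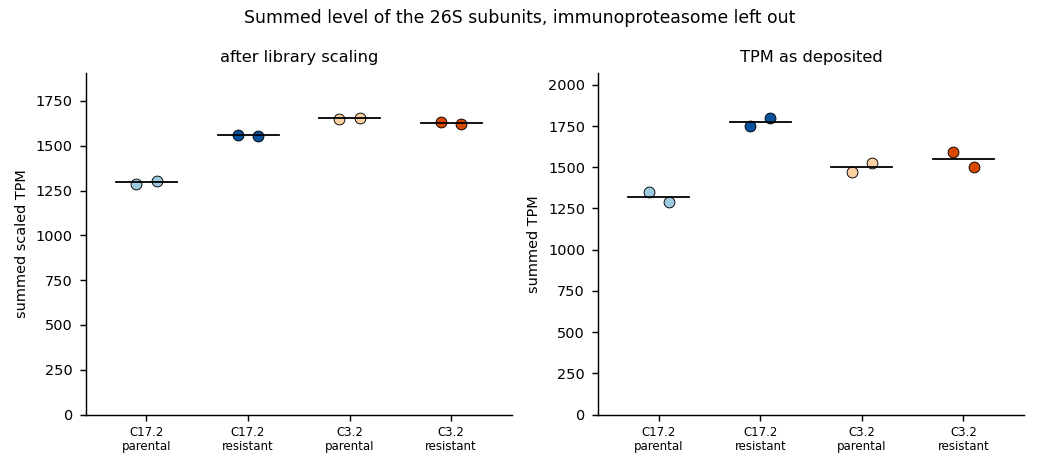
Summed level of the 26S subunits without the immunoproteasome (y axis) in each library, by group (x axis), after library scaling (left, scaled TPM) and as deposited (right, TPM). Points are libraries and lines are means of 2. C17.2 parental is lowest on both scales, and C17.2 resistant is below both C3.2 groups on the left and above them on the right.

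Activators of the core divided in 2 ways. PSME1 and PSME2 encode the alternating subunits of the interferon-inducible PA28 cap, and only PSME2 passed the test in C17.2. PSME2 was at 64.6 and 64.9 in parental and 86.8 and 84.6 in resistant libraries, a rise of 0.40 ± 0.04 SE (adjusted p = 0.000994). PSME1 was at 105 and 104 in parental and 103 and 105 in resistant libraries, and its change of -0.01 had a 95% confidence interval of -0.11 to 0.10. PSME3, the nuclear PA28 gamma, rose from 44.7 and 43.1 to 60.6 and 59.6 in C17.2 (log2 change 0.45, adjusted p = 0.000679) and from 59.7 and 61.1 to 70.1 and 69.1 in C3.2 (log2 change 0.20, adjusted p = 0.0267). PSME4, the PA200 activator, and PSMF1, the inhibitor PI31, did not pass the test in either clone. Exons of PSME1 overlap EMC9, those of PSME2 overlap RNF31 and those of PSME3 overlap BECN1 on the other strand. The share of their reads cannot be separated here.

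Of the assembly chaperones POMP was the only one called higher in C17.2. PSMG4, part of the chaperone pair that orders the alpha ring with PSMG3, was at 10.0 and 10.4 in parental and 8.09 and 8.46 in resistant libraries of C17.2 and fell by 0.27 on the log2 scale (adjusted p = 0.0108). On the deposited scale its change was -0.13 and did not pass the test (adjusted p = 0.155). PSMG1, PSMG2 and PSMG3 had changes of 0.08, -0.18 and 0.01, and the 19S base chaperones PSMD5, PSMD9 and PSMD10 had 0.05, 0.01 and -0.02, none past the threshold. The median change over the 8 assembly genes was 0.0086.

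In C3.2 fewer members and fewer of all genes were called than in C17.2. Of the 51, 2 rose (PSMC4 and PSME3) and 1 fell (PSMA6). This is 3.92% and 1.96%, beside 4.46% of all genes that rose and 6.9% that fell, so that the share of rises was near that of all genes. The median change of the 32 subunits of the 26S particle was -0.0036, with 15 above 0 and 17 below, but 24 were above 0 on the deposited scale and 27 when scaled over protein-coding genes. PSMC4 was at 22.5 and 22.9 in parental and 27.0 and 28.1 in resistant libraries and rose by 0.27 (adjusted p = 0.0142). PSMA6 was at 109 and 109 in parental and 87.3 and 89.7 in resistant libraries and fell by 0.30 on the log2 scale (adjusted p = 0.0126). Both resistant libraries were above both parental ones for 6 of the 32 subunits and below for 5, 18.8% and 15.6%, beside 27.8% and 28.1% of all genes. By limma 0 members were called without parental replicate 1 (4 at an unadjusted p under 0.05, 2 in each direction), 0 without parental replicate 2 (4 higher and 3 lower at an unadjusted p under 0.05), and 1 was called without resistant replicate 2. The 2 rises and 1 fall became 1 rise on the deposited scale and 4 rises and 1 fall when scaled over protein-coding genes. Over the 51 members the changes of the clones had a Spearman's rho of 0.139, from separate libraries.

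The change in C17.2 was then set against the change in C3.2 in the same model. It was higher in C17.2 for 14 members and lower for 1, NFE2L1, beside 4.91% and 4.99% of all genes, and 7.27% of protein-coding genes in the same range were higher. The 14, 27.5% of the tested members, comprised PSMA3, PSMA6, PSMA7, PSMB1, PSMB5, PSMB6, PSMC4, PSMD1, PSMD3, PSMD7, PSMD11, PSME2, PSME3 and POMP. All 32 subunits had a difference above 0, with a median of 0.29, except that under quantile normalization 29 did. The largest was that of POMP at 0.79 ± 0.06 SE (adjusted p = 0.00151), and that of NFE2L1 was -0.95 ± 0.09 SE (adjusted p = 0.00313). For PSMA7 it was 0.53 ± 0.05 SE (adjusted p = 0.00329). For PSMB10 the difference of 0.15 did not pass the test (adjusted p = 0.311), and for PSMB8 it was -0.04 with a 95% confidence interval of -0.31 to 0.23. The count of 15 depended on single libraries: without 1 library at a time it was 4 (C17.2 parental 1), 7 (C17.2 parental 2), 6 (either C17.2 resistant library), 5 (either C3.2 parental library) and 9 (C3.2 resistant 2). In each of the 16 alternatives run PSMA7, PSMB1, POMP and NFE2L1 were called, and each of the other 11 lost the call in at least 1. With the libraries of the clones blocked by the number they share in their titles the count was 5.

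The same parental libraries of C17.2 enter the comparison of the parental clones, so that it is not independent of the changes above. There, 28 members were lower in C17.2 and 1, NFE2L1, was higher, which is 54.9% lower beside 12.0% of all genes lower, 10.5% higher, and 17.7% of protein-coding genes in the same range lower. The count of 29 became 17 without C17.2 parental 1, 17 without C17.2 parental 2, 18 without C3.2 parental 1 and 17 without C3.2 parental 2. All 32 subunits had a difference below 0, with a median of -0.28, but on the deposited scale 27 did, with a median of -0.12, and 13 members were lower and 3 higher. Scaled over protein-coding genes 31 did. The median difference was -0.50 over the 20S genes and -0.22 over the 19S genes. NFE2L1 was higher by 1.13 (adjusted p = 0.000243) and POMP lower by a log2 difference of -0.74 (adjusted p = 0.000225).

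Resistant cells of the clones were compared as well, a contrast added after values had been seen. Here 8 members were lower in C17.2, beside 11.0% of all genes, and 0 were higher by limma (3 at an unadjusted p under 0.05), beside 9.36% of all genes. The 8 were PSMA2, PSMB1, PSMB6, PSMB10, PSME1, PSME2, PSME3 and PSMG4, and without C17.2 resistant replicate 2 the count was 4. Of the 18 genes of the 19S particle 0 were called by limma (1 higher and 3 lower at an unadjusted p under 0.05), and their median was 0.0023. This comparison rests on the scaling: on the deposited scale 19 members were higher and 2 lower, with a median of 0.19 beside 0.22 for all genes, and scaled over protein-coding genes 2 were higher and 8 lower. PSME1 and PSMB10 differed between the clones in both states, with differences of -0.34 and -0.61 in parental and -0.35 and -0.46 in resistant cells.

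Genes that work with the proteasome changed in both directions. Among partners of the particle, USP14 and UBQLN1 rose in C17.2, and ECPAS and TXNL1 fell. USP14, the deubiquitylase that docks on PSMD2, was at 24.4 and 24.3 in parental and 30.6 and 32.1 in resistant libraries, a rise of 0.35 (adjusted p = 0.00233), and its change differed between the clones. SEM1, the smallest 19S subunit, whose symbol does not follow the PSM pattern, had a change of 0.54 with libraries at 11.6 and 11.7 and at 15.8 and 19.1 (adjusted p = 0.0891). Of 6 ubiquitin genes, UBB and the activating enzyme UBA1 rose in C17.2, by 0.30 and 0.24, and RPS27A fell in both clones.

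Of 13 genes that process or partner NFE2L1, 3 rose in C17.2 and 3 fell, near the 19.5% and 15.1% of protein-coding genes in the members' range. VCP, the segregase that pulls NFE2L1 from the membrane of the endoplasmic reticulum, was at 44.9 and 44.1 in parental and 59.5 and 56.3 in resistant libraries (log2 change 0.37, adjusted p = 0.00276), and its cofactors UFD1 and NPLOC4 rose by 0.25 and 0.49. The genes that fell were SYVN1, the ubiquitin ligase of the same membrane, the small Maf partner MAFG, and NFE2L2, the relative of NFE2L1. SYVN1 fell by 0.37 in C17.2 and 0.38 in C3.2. NFE2L2 was at 30.3 and 31.3 in parental and 26 and 25.6 in resistant libraries of C17.2 (log2 change -0.25, adjusted p = 0.024).

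Among genes of MHC class I presentation and the interferon response, TAP1, HLA-B, HLA-C, NLRC5 and IRF1 fell in C17.2. IRF1 also fell in C3.2, by 0.44. TAP1, the peptide transporter next to PSMB9, was at 4.99 and 5.60 in parental and 3.00 and 3.49 in resistant libraries of C17.2 (log2 change -0.57, adjusted p = 0.00453). IRF1, an interferon-response factor, was at 43.5 and 38.8 and at 21.4 and 19.4 (log2 change -0.98, adjusted p = 0.000501). The change of HLA-B, HLA-C, NLRC5 and IRF1 differed between the clones. PSMB8 and PSMB9, of the same region of chromosome 6, were among the genes that did not pass the test, and PSMB10 and PSME2 rose.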

How the data were processed

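RNA-seq of ribosomal RNA-depleted total RNA was available for 8 libraries in 4 groups. The authors trimmed reads with Trim Galore 0.6.3, aligned them with STAR 2.7.9a to hg38 and deposited TPM per gene from RSEM 1.3.1. The deposited TPM keep no depth, so no count model was used, and the limma-voom fit of the study was not repeated.

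Genes with at least 1 TPM in at least 1 library were kept (15614 of 60754). Each library was divided by a factor, taken from the average log2 ratio to the mean over libraries once the outer 30% of ratios and 5% of levels at either side had been dropped. A model of log2(scaled TPM + 1) was fitted in limma 3.58.1 (R 4.3.3) with 1 term per group and an intensity trend, and two-sided p-values were adjusted over all genes by the Benjamini-Hochberg method at 0.05. Confidence intervals are 95% and unadjusted.

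Members and gene lists were chosen with earlier results of these data known, and no set test was run. Some genes of the lists are not reported here, and no counts are given for those lists. The genes picked by rule were the regulators, the catalytic subunits, POMP, ADRM1, PSMF1 and, for each class and contrast, the gene with the largest absolute change. The text does not print the library values of all of them. Others named in the text were chosen after their values were seen. All 53 members matched Gencode release 44 on GRCh38 by gene identifier, which gave exon overlaps, and 18 overlap an exon of another tested gene. Of 32 proteasome pseudogene rows 3 reached 1 TPM, so that reads may be split between copies. They were PSMC1P1, PSME2P2 and PSMA6P1, at up to 9.4, 3.08 and 1.69 deposited TPM, so that this limit holds for PSMC1, PSME2 and PSMA6. Python 3.11.15, pandas 2.3.3 and matplotlib 3.10.9 made tables and plots.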

Additional observations from a re-analysis of the deposited data

Results flagged for a closer look

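For 15 members the change in C17.2 differed from the change in C3.2 by the test of that difference (limma, adjusted p under 0.05, 2 libraries a group). The log2 difference, change in C17.2 minus change in C3.2, was -0.95 for NFE2L1, the single negative value, which came from a fall in C17.2 with the C3.2 libraries at 18.1 to 20.6 scaled TPM. For the assembly chaperone POMP it was 0.79. Among the alpha subunits it was 0.53 for PSMA7, 0.44 for PSMA6 and 0.41 for PSMA3, where PSMA6 fell in C3.2 and did not pass the test in C17.2. Among the beta subunits it was 0.46 for PSMB1, 0.40 for PSMB5 and 0.31 for PSMB6. For the ATPase PSMC4, which rose in both clones, it was 0.30. Among the non-ATPase subunits it was 0.48 for PSMD11, 0.47 for PSMD1, 0.35 for PSMD7 and 0.28 for PSMD3. For the activators it was 0.38 for PSME2 and 0.24 for PSME3. Of 16 alternatives all kept the call for NFE2L1, POMP, PSMA7 and PSMB1. It was kept in 14 for PSME2, 13 for PSMA6, 10 for PSMD7, 9 for PSMA3, 8 for PSMC4, 5 each for PSMB6, PSMD1, PSMD3 and PSMD11, 3 for PSME3 and 2 for PSMB5. These differences share the C17.2 parental libraries with the comparison of the parental clones, and no cause was tested.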

How the results depend on the processing

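The 24 members picked by rule, as described above, were recomputed in 1152 values. Of these, 1030 kept their side of the threshold, 106 kept the direction and lost the call, 16 gained it, and 0 changed direction with a call. The 1030 include values without a call that changed sign. For PSMB8 the difference of the changes, -0.04 with all libraries and scaling, ranged from -0.15 to 0.08. For counts of called members, leaving out 1 library at a time gave 15 to 29 in C17.2 (25 with all libraries), 0 to 4 in C3.2 (3), 4 to 16 for the difference of the changes (15), 17 to 32 between parental clones (29) and 4 to 11 between resistant clones (8). A lone library was then assumed to vary like the other groups. In C3.2 the count was 0 with its 4 libraries alone (6 at an unadjusted p under 0.05, 3 in each direction), 1 with TPM as deposited and 5 when scaled over protein-coding genes. Without the intensity trend 8 members differed in their changes. With TPM as deposited 16 differed between parental clones and 21 between resistant clones. With TPM as deposited the median change of members was 0.33 in C17.2 (0.17 with scaling), 0.28 for the difference of the changes (0.19), -0.07 between parental clones (-0.23) and 0.19 between resistant clones (-0.06), beside a median over all genes tested of 0.13, 0.08, 0.14 and 0.22. Scaled over protein-coding genes it was 0.26 in C17.2 and 0.11 in C3.2. Parental and resistant libraries of a clone share no number in their titles, so no block was fitted there, but each number occurs once in either clone. Deviations from the group means of same-numbered libraries had an r of -0.114 in parental and 0.0186 in resistant cells over 15614 genes, which are not independent, and no source says that a number marks a shared batch. A replicate block on it, chosen after seeing the data, gave 5 called members for the difference of the changes, 24 between parental and 6 between resistant clones. Depth is unknown, 2 libraries a group limit the precision, and transcript levels do not give proteasome activity.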
